A study of Rattus norvegicus with 9 samples.

Results

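Hedgehog signaling was represented by 9 genes, chosen by name for their place in the pathway and found among the 35362 genes of the count table. They comprised the receptor Ptch1, the ligand-binding decoy Hhip, the co-receptors Gas1, Cdon, and Boc, the transducer Smo, and the transcription factors Gli1, Gli2, and Gli3. The counts came from RNA-Seq of adipose-derived mesenchymal stem cells of male Sprague Dawley rats aged 6 weeks, all fasted before the fat was taken, and the cells were collected at passage 3 with no treatment named. SASCs were grown from subcutaneous fat of the groin, PASCs from perirenal fat, and EASCs from epididymal fat, with 3 samples in each group. The cells were those that attached to culture dishes after collagenase digestion of the fat, so each group is a cultured population and not sorted cells. The study compared the depots, and the question addressed here is how the parts of the Hedgehog pathway differed between them.

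Hedgehog ligands bind PTCH1, a membrane protein that otherwise holds SMO inactive. GAS1, CDON, and BOC bind the ligands beside PTCH1 and help them to act. When SMO is released it works in the primary cilium, where the GLI proteins are converted from repressors to activators, with GLI3 the main repressor and GLI2 the main activator. GLI1, PTCH1, and HHIP are themselves transcribed when the pathway is active, and in adipose tissue Hedgehog signaling is known for holding back the formation of fat cells.

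Total counts ranged from 17591916 to 30299032 per sample, and levels are given as CPM, the counts relative to the library size, after scaling by the trimmed mean of M-values (TMM). A gene at 3 counts stood at 0.104 to 0.159 CPM, a limit for counting error only. Ribosomal RNA genes took 10.4 to 15.5% of the counts of SASCs samples, while PASCs samples held 22.4 to 32.9% and EASCs samples 15.9 to 40.3%. Scaling by library totals without TMM moved the median log2 fold change of all genes to -0.39 in EASCs and -0.33 in PASCs against SASCs, from near 0, and the share of differentially expressed genes (DEGs) that were higher from 48.8 to 28.3% in EASCs and from 44.7 to 28.5% in PASCs. The methods describe the replicates of each group as wells of culture plates, and the samples are not stated to come from separate rats. The p-values therefore measure only the spread between these samples.

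The summed CPM of 7 surface markers of adipose stem cells (Thy1, Eng, Nt5e, Cd44, Itgb1, Pdgfra, and Pdgfrb) ran from 4135 to 4262 over the SASCs samples, with PASCs at 3784 to 3960 and EASCs at 4958 to 5027, and none was at 0. The sum covers unequal moves, since Pdgfra was 6.58-fold lower in EASCs and 5.55-fold lower in PASCs than in SASCs (1543 ± 37.0, 278 ± 17.6, and 235 ± 8.46 CPM in SASCs, PASCs, and EASCs, n = 3 each), while Itgb1 and Eng were 2.82-fold and 3.41-fold higher in EASCs. All 4 of these differences were DEGs. Other cell types' markers moved between the groups as well. Smooth muscle genes (Myh11, Des, Cnn1, and Acta2) summed to 86.4 to 91.2 CPM in SASCs, with PASCs at 1081 to 1120 and EASCs at 2912 to 2951. All 4 were higher DEGs in both comparisons with SASCs and in EASCs against PASCs. The 5 mesothelial genes, of which Krt19 was at 0 in PASCs, summed to 17.4 to 19.0, 90.9 to 97.9, and 124 to 135 in that order of groups. The 5 proliferation genes, Mki67 and Top2a among them, summed to 57.7 to 61.1, 507 to 517, and 300 to 309. The 4 adipocyte genes, of which Lep had too few counts to be tested, summed to 55.3 to 60.7, 13.5 to 14.4, and 5.64 to 6.20. Leukocyte genes reached 14.7 to 18.9, 29.6 to 32.6, and 54.5 to 58.8, endothelial genes 38.8 to 41.6, 10.96 to 13.2, and 26.7 to 29.7, and epithelial genes (Krt18 at 0 in SASCs, Cdh1 in EASCs) 1.10 to 1.25, 3.44 to 3.83, and 5.99 to 8.67. The endothelial sum also covers unequal moves. Tek was a higher DEG in EASCs (3.17-fold) and PASCs (3.27-fold) against SASCs, while Kdr was a lower DEG in each. Pecam1 and Cdh5 were lower DEGs in PASCs but were not DEGs in EASCs. S100b, a gene of Schwann cells that adipocytes also express, was 20.1-fold lower in EASCs and 4.31-fold lower in PASCs (29.8 ± 1.83 CPM in SASCs, n = 3), both DEGs, while Sox10 had at most 3 counts in a sample. The part of these genes in the results on the Hedgehog members was not tested, and in cell populations like these fewer cells of a type and less RNA per cell cannot be told apart.

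The sequences before the start sites of 3 members are shown because Ptch1 is a target gene of the pathway and Cdon and Gli2 were the members of the promoter table that were DEGs. Of the 9 members, all but Gas1 and Gli1 were matched in the RefSeq promoters of assembly GRCr8, a later build than that of the counts, and each stretch holds the 250 bases before the start, written 5′ to 3′ on the strand of the gene. The GLI binding sequence GACCACCCA, or its reverse complement TGGGTGGTC, was searched on both strands. It was held by 113 of 33469 promoters of this length (0.338%) and, of the 7 matched, by Ptch1, where it is set in capitals. A match is a description of the letters and not a measured site. The stretches lie at chr17:1555321-1555570 on the plus strand, chr8:42063752-42064001 on the plus strand, and chr13:32716419-32716668 on the minus strand.
Ptch1: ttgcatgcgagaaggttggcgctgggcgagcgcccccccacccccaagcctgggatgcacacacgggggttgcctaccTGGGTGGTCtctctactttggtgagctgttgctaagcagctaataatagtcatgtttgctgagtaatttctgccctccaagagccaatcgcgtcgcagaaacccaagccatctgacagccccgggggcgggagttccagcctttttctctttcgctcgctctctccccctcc
Cdon: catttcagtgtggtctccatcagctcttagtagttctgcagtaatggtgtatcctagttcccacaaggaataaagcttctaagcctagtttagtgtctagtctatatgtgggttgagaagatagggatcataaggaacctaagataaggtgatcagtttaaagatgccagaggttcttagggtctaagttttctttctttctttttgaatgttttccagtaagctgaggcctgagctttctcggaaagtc
Gli2: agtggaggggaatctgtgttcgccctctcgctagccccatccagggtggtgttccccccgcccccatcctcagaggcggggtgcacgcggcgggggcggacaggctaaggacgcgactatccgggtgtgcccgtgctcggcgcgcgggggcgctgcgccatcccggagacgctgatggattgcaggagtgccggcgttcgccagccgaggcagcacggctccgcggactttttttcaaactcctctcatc

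The Hedgehog ligands stood at or near the counting limit. Shh, the ligand of the developing limb and nervous system, had 0 counts in all 9 samples, which allows up to 0.104 to 0.159 CPM per sample. Ihh, the ligand of growing cartilage, had 2 counts in all, both in 1 SASCs sample. Dhh, the ligand of testis and peripheral nerve, summed to 4 counts in SASCs, 5 in PASCs, and 10 in EASCs over 3 samples each. None of the 3 passed the filter on low counts, so no difference was tested.

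Among the members, 7 passed the filter and 2, Gli1 and Hhip, did not. Genes that differed more than 2-fold at an adjusted p below 0.05 in edgeR's quasi-likelihood test were taken as DEGs. Against SASCs, 2 of the 7 were DEGs in EASCs (Gas1 and Cdon, both lower), where 27.8% of all 14770 genes tested were DEGs, and 3 of the 7 in PASCs (Gas1, Cdon, and Gli2, all lower), where 26.9% were. Between EASCs and PASCs, 2 of the 7 were DEGs (Gli2 higher and Gas1 lower in EASCs), against 7.39% of all genes. The median log2 fold change of the tested members was -0.46 in EASCs and -0.77 in PASCs against SASCs, and 0.10 in EASCs against PASCs. The comparisons share their samples, so these are 3 views of the same libraries.

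**Figure D1:**
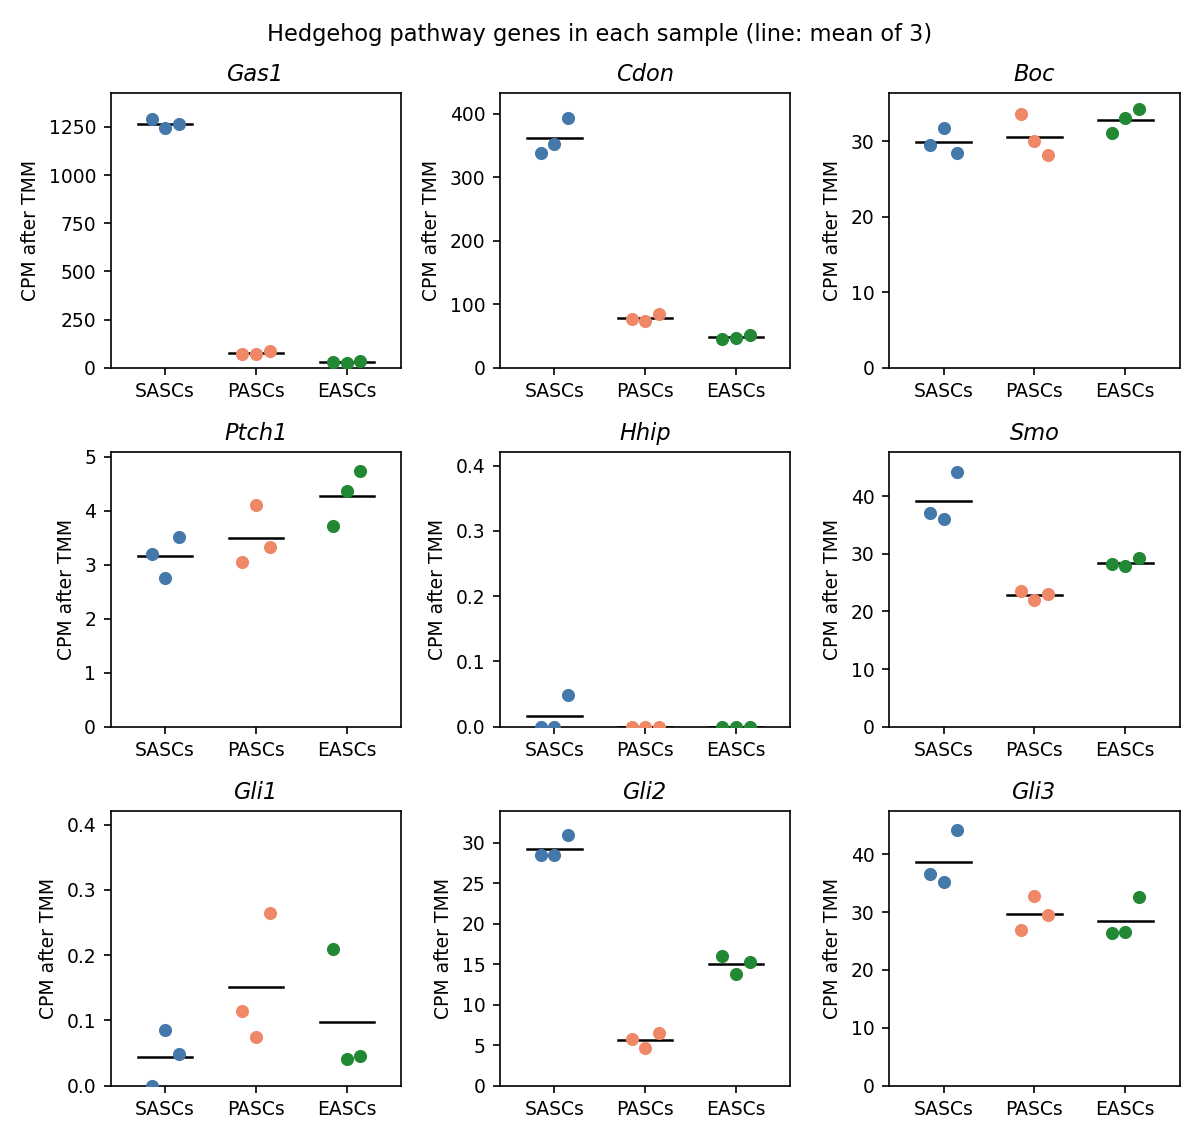
Level of each member in CPM after TMM (y axes, from 0) in every sample (points), by group, with the line at the mean of 3. Gas1 stands at 1242 to 1292 in SASCs and at 26.4 to 88.3 in the other samples, Gli2 is lowest in PASCs, Boc overlaps between groups, and Gli1 and Hhip stay near 0.

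Of the co-receptors, Gas1, a membrane-anchored protein first found in cells arrested in growth, differed most from SASCs of the 7 members tested. Its CPM was 1292, 1242, and 1265 in SASCs (1267 ± 25.3, SD, n = 3). It was 71.2, 73.0, and 88.3 in PASCs (77.5 ± 9.41, n = 3), and 29.9, 26.4, and 34.3 in EASCs (30.2 ± 3.95, n = 3). No sample of any group overlapped with those of another, and the order was SASCs above PASCs above EASCs. Gas1 was 42.0-fold lower in EASCs (log2 fold change -5.39, SE 0.0889, edgeR adjusted p = 8.59e-27), 95th by size of fall among the 14770 genes. In PASCs it was 16.4-fold lower (-4.03, SE 0.0820, edgeR adjusted p = 9.67e-25). EASCs stood below PASCs by 2.56-fold (-1.36, SE 0.0817, edgeR adjusted p = 2.14e-13). Gas1 lies on chromosome 17, chr17:4846118-4849350 of rn6 on the plus strand, with no gene of the table overlapping it. Per kilobase of the deposited gene length its mean level was 392 CPM in SASCs, 130th of the genes tested, so that it was among the most abundant transcripts of those cells. The level per kilobase was 24.0 in PASCs and 9.33 in EASCs.

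Cdon, a cell-surface protein of the immunoglobulin family, fell in the same order. Its CPM in SASCs was 338, 352, and 394 (361 ± 28.9, n = 3). In PASCs it was 76.9, 73.1, and 84.2 (78.1 ± 5.63, n = 3), and in EASCs 44.9, 46.7, and 52.1 (47.9 ± 3.75, n = 3). The 3 groups did not overlap. It was 7.54-fold lower in EASCs (log2 fold change -2.91, SE 0.0700, edgeR adjusted p = 2.60e-23) and 4.63-fold lower in PASCs (-2.21, SE 0.0673, edgeR adjusted p = 6.14e-21). EASCs stood 1.63-fold below PASCs (-0.70, SE 0.0694, edgeR adjusted p = 4.80e-09), under the fold limit. Cdon (chr8:36625830-36712091, plus strand) shares its interval and strand with LOC102548010, for which no sample held more than 109 counts while Cdon had at least 1073 counts in every sample. Its promoter, printed above, holds 1 CG dinucleotide in 250 bases, against 27 in that of Gli2.

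Boc, the close relative of Cdon and its counterpart in ligand binding, did not pass the test in any comparison. Its CPM was 29.4, 31.7, and 28.5 in SASCs (29.9 ± 1.67, n = 3), 33.6, 29.9, and 28.2 in PASCs (30.6 ± 2.78, n = 3), and 31.0, 33.0, and 34.3 in EASCs (32.8 ± 1.64, n = 3). The groups overlapped in all 3 comparisons. The log2 fold change was 0.13 in EASCs (SE 0.0786, edgeR adjusted p = 0.134) and 0.04 in PASCs (SE 0.0789, edgeR adjusted p = 0.692) against SASCs, and 0.10 between EASCs and PASCs (SE 0.0785, edgeR adjusted p = 0.392). Both signs against SASCs turned under library totals and under limma on FPKM, with no adjusted p under the threshold. Boc lies at chr11:61084284-61159220 on the plus strand.

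The makeup of the co-receptor transcripts was compared within each sample. Over Gas1, Cdon, and Boc per kilobase, the sum was 430 to 444 CPM in SASCs, against 38.0 to 43.5 for PASCs and 21.5 to 24.8 for EASCs. Gas1 made up 90.1, 89.3, and 88.7% of it in the SASCs samples. In PASCs the share was 56.8, 59.4, and 62.8%, and EASCs had 42.3, 38.0, and 42.7%. Boc made up 1.70 ± 0.121% in SASCs, 19.2 ± 2.78% in PASCs, and 36.1 ± 2.05% in EASCs (n = 3 each). A share within a sample does not depend on the scaling of the library. No group overlapped with another in either share. With 3 against 3 samples the two-sided exact permutation p was 0.1 for every such comparison, the smallest it can give, and the ratios were chosen after their values were seen. These shares compare levels per kilobase, with the deposited length standing for each gene.

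**Figure D2:**
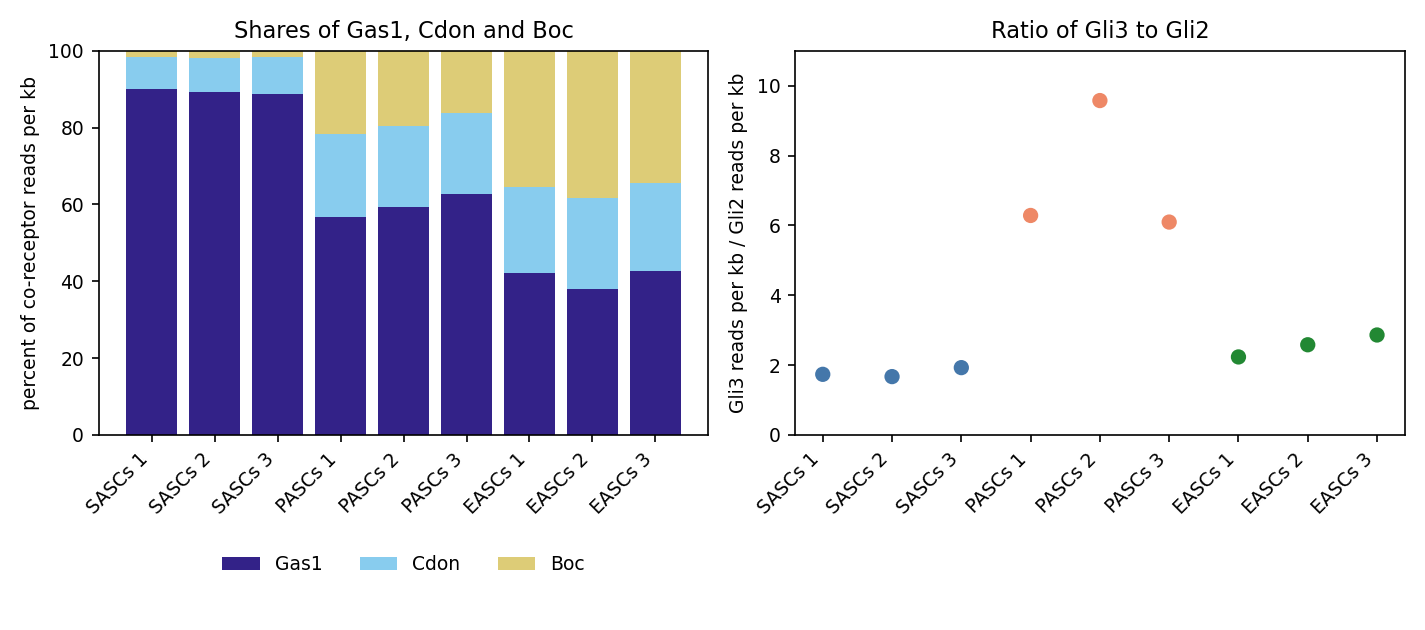
Left, percent of the summed CPM per kb of Gas1, Cdon, and Boc (y axis) taken by each gene, 1 stacked bar per sample; right, the ratio of Gli3 to Gli2 per kb in each sample (points). Gas1 takes 88.7 to 90.1% in SASCs and 38.0 to 42.7% in EASCs, and the ratio of Gli3 to Gli2 is 6.09 to 9.57 in PASCs against 1.67 to 1.93 in SASCs.

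Ptch1, the receptor that restrains SMO and a target gene of the pathway, was low in all groups. Its CPM was 3.20, 2.76, and 3.51 in SASCs (3.16 ± 0.379, n = 3), 3.06, 4.11, and 3.34 in PASCs (3.50 ± 0.545, n = 3), and 3.73, 4.38, and 4.74 in EASCs (4.28 ± 0.515, n = 3), from 63 to 110 counts. The EASCs samples lay above those of SASCs, while PASCs overlapped both. In EASCs against SASCs the log2 fold change came to 0.44 (SE 0.191, edgeR adjusted p = 0.0425), just inside the limit for the p-value and within a 2-fold change. That adjusted p ran from 0.0276 to 0.924 over 15 alternatives and was above 0.05 in 10 of them, so no direction is drawn. In PASCs against SASCs it was 0.16 (SE 0.194, edgeR adjusted p = 0.485), and between EASCs and PASCs 0.28 (SE 0.189, edgeR adjusted p = 0.281). Ptch1 lies at chr17:1032242-1085885 on the minus strand of rn6, and per kilobase it ranked 11716th in SASCs and 11198th in EASCs of 14770 genes.

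Hhip, the decoy that binds the ligands away from PTCH1, had 1 count in all 9 samples, in SASCs replicate 3. Gli1, the GLI gene most dependent on pathway activity, had 0, 2, and 1 counts in the SASCs samples, while PASCs had 3, 2, and 5 and EASCs 5, 1, and 1. The groups overlapped and most samples stood at or under the limit of 3 counts, so a difference between depots was not detectable at this depth. Gli1 (chr7:70620794-70633163, minus strand) overlaps Arhgap9 on the other strand, which had up to 48 counts in a sample, and the use of strand in counting is not given in the sources used here. Hhip (chr19:31525134-31614487, plus strand) overlaps LOC102549515 on the other strand, which had 0 counts. Thus of the 3 direct target genes, Ptch1 alone passed the filter.

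Smo, the transducer on the membrane, was lower in both visceral groups. Its CPM was 37.1, 36.0, and 44.2 in SASCs (39.1 ± 4.42, n = 3), 23.5, 21.98, and 23.0 in PASCs (22.8 ± 0.773, n = 3), and 28.1, 27.9, and 29.3 in EASCs (28.5 ± 0.740, n = 3). The groups did not overlap, with PASCs lowest. The log2 fold change was -0.46 in EASCs (SE 0.0792, edgeR adjusted p = 1.26e-05) and -0.77 in PASCs (SE 0.0807, edgeR adjusted p = 2.49e-09), neither above 2-fold. EASCs exceeded PASCs by 0.32 (SE 0.0822, edgeR adjusted p = 0.00369), a p that rose to over 0.05 in 3 of 15 alternatives. Smo (chr4:57019941-57041779, plus strand) was the most abundant member per kilobase in EASCs, at 11.9 ± 0.311 CPM beside 9.33 ± 1.22 for Gas1, and in PASCs it came after Gas1, at 9.59 ± 0.325.

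Gli2, the main activator, was lowest in PASCs, with EASCs and SASCs above. Its CPM was 28.4, 28.4, and 30.9 in SASCs (29.2 ± 1.43, n = 3), 5.78, 4.598, and 6.51 in PASCs (5.63 ± 0.966, n = 3), and 16.0, 13.8, and 15.3 in EASCs (15.02 ± 1.09, n = 3). No samples overlapped between groups, and EASCs lay between the others. In PASCs it was 5.24-fold below SASCs (log2 fold change -2.39, SE 0.112, edgeR adjusted p = 1.11e-16). In EASCs it was 1.95-fold below (-0.96, SE 0.0999, edgeR adjusted p = 2.42e-09), just short of the fold limit, and -1.003 without EASCs replicate 1, just past it. EASCs exceeded PASCs by 2.69-fold (1.43, SE 0.117, edgeR adjusted p = 1.18e-10), a call lost with limma on log2(FPKM + 1), where the difference was 0.74. Gli2 lies at chr13:34829021-34997009 on the minus strand, without an overlapping gene.

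Gli3, the main repressor, differed by less than 2-fold in each comparison. Its CPM was 36.6, 35.3, and 44.2 in SASCs (38.7 ± 4.83, n = 3), 26.97, 32.7, and 29.5 in PASCs (29.7 ± 2.88, n = 3), and 26.5, 26.5, and 32.5 in EASCs (28.5 ± 3.49, n = 3). PASCs and EASCs overlapped each other and both lay below SASCs. The log2 fold change was -0.44 in EASCs (SE 0.0934, edgeR adjusted p = 1.64e-04) and -0.38 in PASCs (SE 0.0931, edgeR adjusted p = 8.27e-04) against SASCs, and -0.06 between EASCs and PASCs (SE 0.0949, edgeR adjusted p = 0.668). Gli3 (chr17:52294942-52569036, minus strand) was also set against Gli2 within each sample. Per kilobase, the ratio of Gli3 to Gli2 was 1.73, 1.67, and 1.93 in SASCs. PASCs had 6.28, 9.57, and 6.09, and EASCs 2.23, 2.58, and 2.86. The groups did not overlap (two-sided exact permutation p = 0.1 for each pair, the smallest possible with 3 against 3). The log2 ratio of Smo to Ptch1 per kilobase was 4.49 ± 0.0868 in SASCs, 3.57 ± 0.268 in PASCs, and 3.59 ± 0.155 in EASCs (n = 3 each). SASCs lay above PASCs and EASCs without overlap (two-sided exact permutation p = 0.1 for each, the smallest possible). PASCs and EASCs overlapped (exact permutation p = 1).

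**Figure D3:**
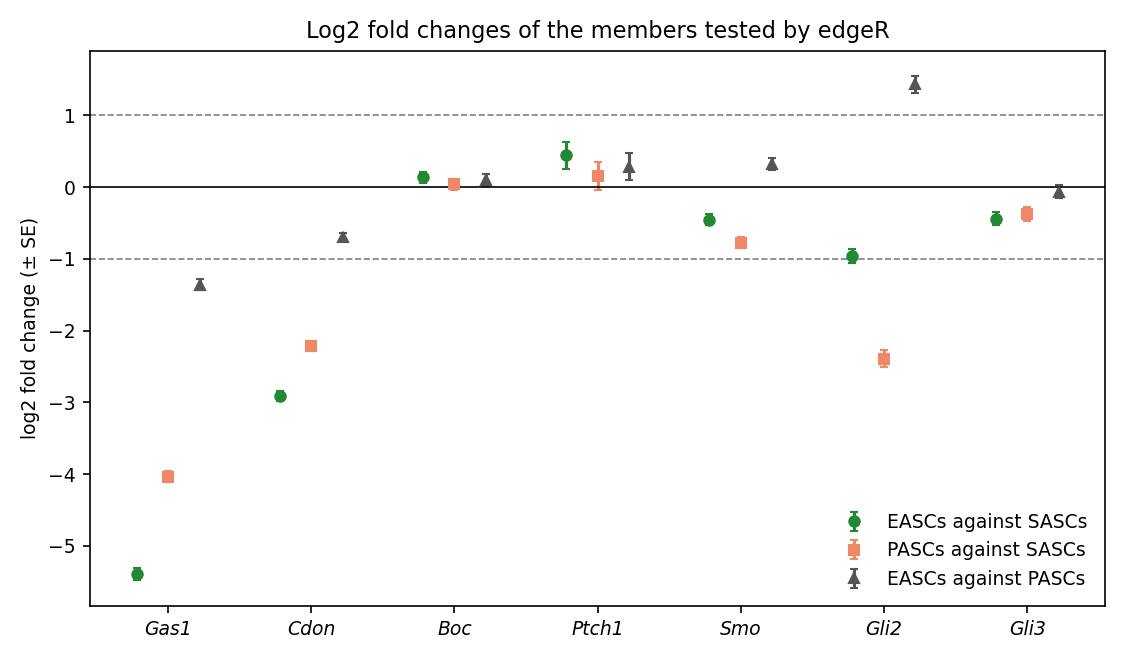
Log2 fold change (y axis) with its SE (bars) of the 7 members tested, by edgeR, for EASCs and PASCs against SASCs and EASCs against PASCs, with dashed lines at a fold change of 2. Gas1 reaches -5.39 in EASCs and -4.03 in PASCs, Gli2 -2.39 in PASCs, while Boc lies between 0.04 and 0.13 in the 3 comparisons.

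The rest of the pathway was read from 55 further genes listed by role, of which 52 were matched in the table and 48 tested. In EASCs against SASCs 9 were higher and 4 lower DEGs (27.1% of the 48, beside 27.8% of all genes). In PASCs against SASCs 4 were higher and 8 lower (25%, beside 26.9%), and in EASCs against PASCs 4 were higher and 0 lower (8.33%, beside 7.39%). The shares were close to those of all genes, and the median log2 fold changes were -0.04, -0.02, and 0.10. With library totals the split of the first comparison was 5 higher and 12 lower, and of the second 3 higher and 11 lower.

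Among genes for making and releasing ligands, 4 were tested, with 2 higher and 1 lower in EASCs and 1 higher and 1 lower in PASCs (75 and 50% of the 4, beside 27.8 and 26.9% of all genes). Scube3, a secreted protein of a family that helps release the lipid-bearing ligand, stood at 2.92 ± 0.700 CPM in SASCs, 4.30 ± 1.29 in PASCs, and 10.3 ± 0.230 in EASCs (n = 3 each). In EASCs it rose by 1.84 on the log2 scale (SE 0.191, edgeR adjusted p = 2.39e-09), a call lost with limma on log2(FPKM + 1) (0.56), and in PASCs it stood at 0.58 (edgeR adjusted p = 0.0149), under the fold limit. Hhat, the enzyme that attaches palmitate to the ligands, rose in both, by 1.37 in EASCs and 1.76 in PASCs (edgeR adjusted p = 3.62e-04 and 1.30e-05), from 0.999 ± 0.573 CPM. Its change in EASCs was under the fold limit with library totals (0.95) and with limma on log2(FPKM + 1) or log2(FPKM + 0.1) (0.31 and 0.90), and that in PASCs with the first of the limma fits (0.52). Scube2 was lower, by -1.36 in EASCs and -1.20 in PASCs (edgeR adjusted p = 0.0159 and 0.0292), from 17 to 20 counts in SASCs. Its call was lost in the former without EASCs replicate 2 (-1.06, edgeR adjusted p = 0.101) and with limma on log2(FPKM + 1) (-0.23). In the latter it was lost when any 1 of 5 of the 6 samples was left out (-1.12 to -1.32), without the filter on low counts (-1.20), and with limma on log2(FPKM + 1) or log2(FPKM + 0.1) (-0.21 and -0.92). Scube2 passed the filter on low counts only through SASCs, where it was higher, so a fall was built into its being tested.

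Gpc3, a heparan sulfate proteoglycan that binds Hedgehog ligands and limits their action, had the largest change of the wider list. Its level was 45.4 ± 1.48 CPM in SASCs, 1.22 ± 0.239 in PASCs, and 1.84 ± 0.232 in EASCs (n = 3 each). It fell by 4.62 on the log2 scale in EASCs (SE 0.122, edgeR adjusted p = 2.51e-22) and fell by 5.19 in PASCs (SE 0.131, edgeR adjusted p = 8.85e-23). Gpc4 was 118.9 ± 7.45 CPM in EASCs against 58.4 ± 3.25 in SASCs (log2 fold change 1.03, edgeR adjusted p = 3.42e-14), a fold that slipped under 2 without SASCs replicate 2 (0.99) or EASCs replicate 3 (0.98), with library totals (0.62), and with limma at either pseudocount (0.60 and 0.62). Against PASCs its log2 fold change in EASCs was 1.02 and fell under the 2-fold limit without PASCs replicate 1 (0.99), PASCs replicate 2 (0.99), or EASCs replicate 3 (0.97), with library totals (0.93), and with limma at either pseudocount (0.90 and 0.93). Lrp2, an endocytic receptor, rose by 3.69 in EASCs (SE 0.521, edgeR adjusted p = 5.60e-07), from 3 to 4 counts per SASCs sample to 36 to 48, and was not called with limma on log2(FPKM + 1) or log2(FPKM + 0.1) (0.13 and 0.90). Lrp2 passed the filter on low counts through EASCs, where it was high, so a rise there was built into its being tested. Its call in PASCs (1.60, edgeR adjusted p = 0.0253, groups overlapping) was lost without SASCs replicate 1 (1.40), PASCs replicate 2 (1.56), or PASCs replicate 3 (1.10), with library totals (1.29), and with limma at either pseudocount (0.024 and 0.20).

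Of 13 intracellular regulators tested, 1 was a DEG in each comparison with SASCs (7.69%, beside 27.8 and 26.9% of all genes). Sufu, which holds the GLI proteins in the cytoplasm, was at 23.1 ± 1.22 CPM in SASCs, 24.0 ± 2.31 in PASCs, and 19.7 ± 0.916 in EASCs, with log2 fold changes of -0.23 in EASCs (edgeR adjusted p = 0.0235) and 0.05 in PASCs (edgeR adjusted p = 0.609). Stk36, a kinase whose fly counterpart is Fused, was lower in PASCs (-1.25, edgeR adjusted p = 1.60e-08), a call lost with limma on log2(FPKM + 1) (-0.85). In EASCs it stood at -0.98 (edgeR adjusted p = 7.01e-07), just under the fold limit. Gpr161, a ciliary receptor that restrains the pathway, was higher in EASCs (1.01, edgeR adjusted p = 1.03e-10), a call lost without SASCs replicate 1 (0.95), with DESeq2 (0.997), with library totals (0.62), and with limma on log2(FPKM + 1) or log2(FPKM + 0.1) (0.44 and 0.58). In PASCs Gpr161 stood at 0.87 (edgeR adjusted p = 2.55e-09), under the fold limit.

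Of 14 cilium genes tested, 1 was a lower DEG in EASCs and 2 in PASCs (7.14 and 14.3%, beside 27.8 and 26.9% of all genes), and none was higher. Ift27, a subunit of the transport complex in cilia, was 35.4 ± 2.45 CPM in SASCs, 12.1 ± 0.432 in PASCs, and 10.0 ± 0.419 in EASCs, with log2 fold changes of -1.82 in EASCs and -1.56 in PASCs (edgeR adjusted p = 4.06e-16 and 9.46e-15). Arl13b, a small GTPase of the ciliary membrane, was lower in PASCs (-1.04, edgeR adjusted p = 1.34e-09), a call lost without SASCs replicate 1 (-0.96) or PASCs replicate 2 (-0.99) and with limma on log2(FPKM + 1) (-0.99), and stood at -0.80 in EASCs (edgeR adjusted p = 1.21e-07).

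The common target genes went both ways. Of 13 tested, 4 were higher and 1 lower in EASCs and 2 were higher and 3 lower in PASCs against SASCs (38.5% in each, beside 27.8 and 26.9% of all genes). Bmp4, a growth factor, rose by 3.62 in EASCs and 2.89 in PASCs (edgeR adjusted p = 6.98e-06 and 2.60e-04), from 0 to 5 counts per SASCs sample to 21 to 34 and 9 to 28. Without SASCs replicate 1 these were 4.596 and 3.87, and both calls were lost with limma on log2(FPKM + 1) (0.41 and 0.25). Mycn, a transcription factor of proliferating cells, rose by 3.46 and 2.83 (edgeR adjusted p = 9.96e-06 and 2.40e-04), from 0 to 4 counts per SASCs sample, and neither was called with limma on log2(FPKM + 1) (0.40 and 0.27). Bmp4 and Mycn stood so low in SASCs that they passed the filter on low counts only through the other groups. A rise was thus built into their being tested, and their p-values are given as values only. Nr2f1, a nuclear receptor, rose by 1.93 in EASCs (edgeR adjusted p = 1.54e-14), to 23.6 ± 1.91 CPM from 6.20 ± 0.382, and stood at 0.98 in PASCs (edgeR adjusted p = 3.51e-08), just under the fold limit. Osr1, a zinc-finger factor of mesenchyme, fell by 1.81 in EASCs and by 1.92 in PASCs (edgeR adjusted p = 2.38e-16 and 7.46e-17), from 56.3 ± 4.02 CPM to 16.0 ± 1.66 and 14.8 ± 1.45.

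**Figure D4:**
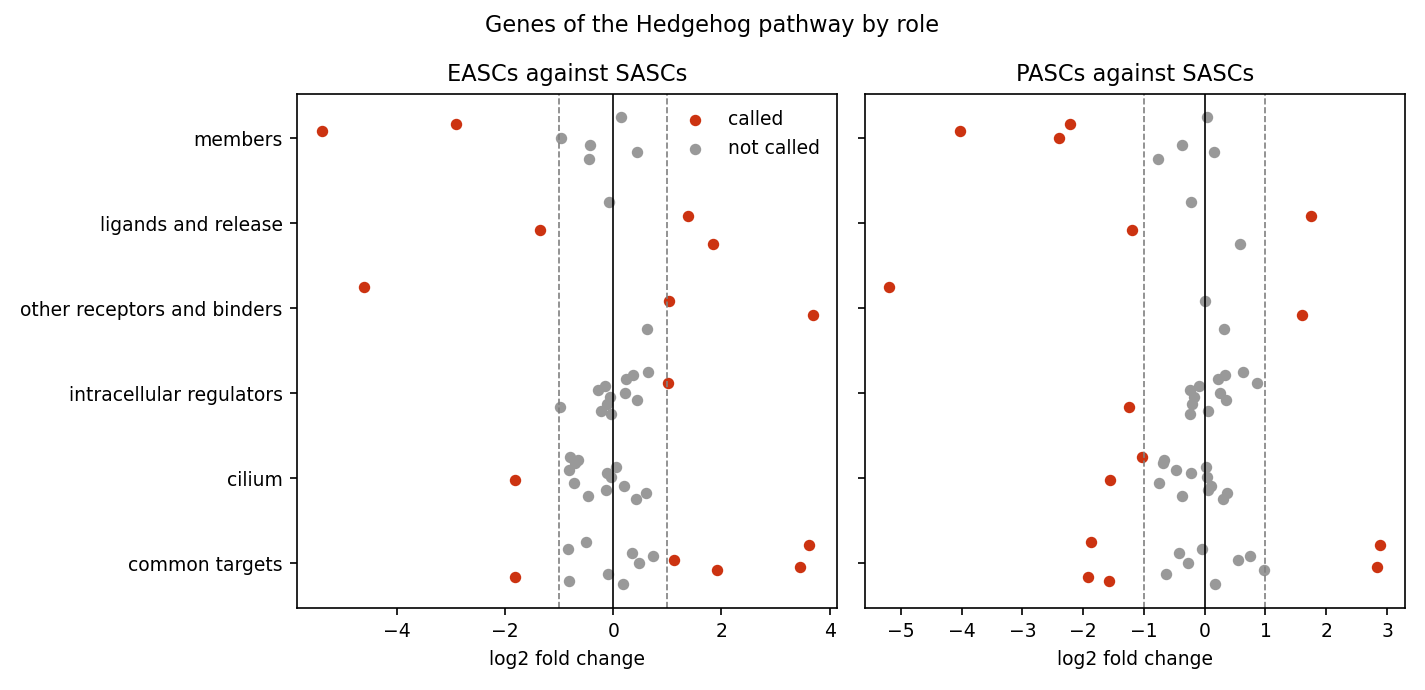
Log2 fold change (x axis) of each tested gene by role (rows), in EASCs and PASCs against SASCs, red where the gene was a DEG, with dashed lines at a fold change of 2. The cilium row holds no higher DEG, and Gpc3 is the leftmost red point outside the members at -4.62 and -5.19.

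Of all genes tested, those whose centred log2 profile lay nearest to that of Ptch1 over the 9 samples were Taf5l, LOC103690178, and Fam214b, at root mean square differences of 0.0888, 0.0932, and 0.104 on the log2 scale. Taf5l, for example, was at 19.0 ± 2.38 CPM in SASCs, 21.6 ± 2.103 in PASCs, and 25.8 ± 2.103 in EASCs. Ptch1 itself moved little and no direction was drawn for it, so nearness here is to other genes that moved little. No test was made of this likeness, which says nothing of shared control.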

How the data were processed

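Paired-end reads of 150 bp were trimmed by the authors with cutadapt 3.1 and FastX-Toolkit 0.0.13 and aligned with TopHat 2.1.1, and they deposited whole-number counts per gene for 9 samples, not normalized. The methods name rn6 and the submitters' processing notes rn5, but the positions in the table, with contigs of chromosome Y, are those of rn6. The counting tool is not given in the sources used here. The methods give 6 replicate wells in each group, of which 3 samples are analysed here. No library appeared to be deposited in duplicate, since the counts of replicate pairs differed by more than counting noise (chi-square of 4.58 to 18.0 per degree of freedom), which does not tell separate rats from wells of 1 culture.

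Counts were normalized by TMM (factors 0.740 to 1.23), filtered with filterByExpr to 14770 genes, and fitted in 1 model of the 3 groups with edgeR 4.0.16 (quasi-likelihood) in R 4.3.3. Benjamini-Hochberg adjustment ran over all genes tested, and genes that differed more than 2-fold with an adjusted p below 0.05 were taken as DEGs. The fit was checked on simulated counts. CPM per kb used the deposited length, and FPKM, for limma 3.58.1 with pseudocounts of 1 or 0.1, was computed from counts and lengths. Other alternatives were DESeq2 1.42.0, library totals, other filters, only the 2 groups compared, a replicate block, removal of ribosomal RNA genes, and leaving out each sample. The members and lists were chosen with earlier results of these data known. Named were all members, the ligands, Sufu, and at most 4 DEGs with the largest change of each list. Some items that the rules select are not reported here.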

Additional observations from a re-analysis of the deposited data

How the results depend on the processing

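Of 315 values for members under the alternatives, 296 kept their direction and side of the threshold. Those that turned sign concerned Boc, Ptch1, and Gli3, none of them a DEG. Under library totals, limma on log2(FPKM + 1), and limma on log2(FPKM + 0.1), Boc in EASCs was -0.27, -0.24, and -0.27, Boc in PASCs -0.29, -0.26, and -0.29, and Ptch1 in PASCs -0.18, -0.080, and -0.16 (log2, against SASCs). Leaving out samples, Boc in PASCs ran from -0.036 (without PASCs replicate 1) to 0.089, and Gli3 between EASCs and PASCs from -0.16 to 0.015 (without PASCs replicate 2). Gli2 in EASCs passed the fold limit under those 3 settings (-1.36, -1.04, and -1.33), as did Smo in PASCs (-1.10, -1.02, and -1.09). Gli2 between EASCs and PASCs fell to 0.74 with limma on log2(FPKM + 1), leaving 1 member called there.

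With limma on log2(FPKM + 1), 2215 genes were called in EASCs and 2039 in PASCs against SASCs and 251 between EASCs and PASCs, and of the wider list 7, 5, and 0. The last was 2 with a pseudocount of 0.1. Of 367 values for named genes of the wider list, taken only in comparisons where they were called, 50 lost the call and none turned sign. Settings in which a gene was filtered out gave no value and are not among the 367. A pseudocount shrinks the fold of low genes by construction. Leaving out samples gave 2 to 3, 3, and 2 members, 4115 to 4160, 3957 to 4116, and 1022 to 1065 genes, and 11 to 13, 10 to 12, and 3 to 5 of the wider list in the 3 comparisons. The replicate block gave 4061, 3944, and 1067 genes and 2, 3, and 2 members. The replicate numbers did not pair the samples, since the deviations of same-numbered samples correlated between -0.0348 and 0.0380 and a sample was nearest to its own number in 8 of 18 checks, so the block is given here as a value only. Depth limits Gli1, Hhip, and the ligands, where few samples exceed 3 counts.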

Other observations

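Gas1 had close neighbours in profile, looked up after its values were seen. The 3 genes nearest to it over the 9 samples were Anpep, an aminopeptidase, Mt2A, a metallothionein, and Mme, the endopeptidase neprilysin, at root mean square differences of 0.196, 0.240, and 0.241 on the log2 scale. Anpep was at 2616 ± 137 CPM in SASCs, 151 ± 9.88 in PASCs, and 77.5 ± 3.75 in EASCs (SD, n = 3 each). Mme was at 739 ± 30.5 CPM in SASCs, 55.2 ± 2.35 in PASCs, and 18.2 ± 2.76 in EASCs. Both are known as surface enzymes of stromal cells. No test was made, and the likeness says nothing of shared control.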
